A study of Mus musculus with 32 samples.

Results

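The insulin-like growth factor (IGF) system was followed in mouse spinal cord through 10 genes, taken by name from a table of 42524 genes counted in 32 mice: the ligands Igf1 and Igf2, the receptors Igf1r and Igf2r, and the binding proteins Igfbp2, Igfbp3, Igfbp4, Igfbp5, Igfbp6 and Igfbp7. All 10 were listed in the table, and 9 of them held enough counts to be tested. Igf2 was not tested, for it held 22 counts in all 32 mice together.

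The mice were wild-type C57BL/6J littermates (WT) or carried the human SOD1 gene with the G93A mutation, B6-Tg(SOD1-G93A)1Gur/J (G93A), a model of amyotrophic lateral sclerosis in which many copies of the mutant gene are driven by the human gene's own regulatory sequence, in every cell type that uses it. Mice of each genotype were untreated or received OKN-007, a nitrone compound with antioxidant and anti-inflammatory properties, in drinking water, and were labelled 90 or 155 days. The earlier age is also given as 95 days in the methods. The labels give neither the dose nor the day on which treatment began. By the design that the methods describe, mice taken at the earlier age had the higher of the doses used, from young adulthood on, and mice taken at the later age had that dose either from young adulthood or from disease onset, and which of these the sequenced mice of the later age had is not stated. Each of the 8 groups held 4 mice, numbered 1 to 16 at each time as in the labels (WT untreated 1 to 4, WT OKN-007 5 to 8, G93A untreated 9 to 12, G93A OKN-007 13 to 16), with other mice at each time. The study's animals were predominantly female, and by the methods the experiments at the higher dose used females only.

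In this pathway, IGF-1 and IGF-2 bind a receptor tyrosine kinase, the product of Igf1r, which signals through adaptor proteins, PI3-kinase and Akt to promote cell growth and survival. The product of Igf2r takes IGF-2 up for breakdown and has no kinase of its own, and the binding proteins hold IGFs outside the cell, prolonging their life or keeping them from the receptor. In the nervous system IGF-1 is known as a survival factor for motor neurons and as a product of microglia, the brain's resident macrophages, when these are activated. Levels are given as CPM, counts scaled to a common library size, and between genes as CPM per kilobase of exon, since a longer gene yields more fragments.

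The count table held 19701722 to 30138257 counts for each mouse, and 3 counts in the smallest library correspond to 0.152 CPM, a limit that covers counting error only. Several marker lists and libraries stood apart from the rest. Summed oligodendrocyte markers were between 27860 and 51740 CPM in the 16 mice labelled 90 days and between 19430 and 24450 CPM in those labelled 155 days, in all 4 kinds of mice, and the labels give no sequencing batch, so that age and any batch cannot be told apart. Summed Schwann cell markers reached 1140 CPM in WT untreated mouse 3 and 217 CPM in G93A untreated mouse 10 at 90 days, against 2.47 to 6.14 CPM in the other 14 mice of that time, and at 155 days 36.2 CPM in WT OKN-007 mouse 6 and 38.1 CPM in G93A OKN-007 mouse 14, against 2.16 to 8.98 CPM in the other 14. Summed liver markers reached 209 CPM in G93A untreated mouse 12 and 145 CPM in G93A OKN-007 mouse 15 at 155 days. The score of caudal Hox genes, which mark the level along the cord, was −0.12 and −0.02 in G93A untreated mice 9 and 10 at 155 days and 3.28 and 3.30 in mice 11 and 12, against 3.37 to 4.44 in the 8 WT mice of that time. Among G93A OKN-007 mice at 155 days it was 0.96 in mouse 13 and 2.56 to 3.41 in the other 3. At 90 days it was 0.30 and 0.05 in G93A OKN-007 mice 13 and 14 and 3.71 and 3.54 in mice 15 and 16. It varied in WT mice of that time too, from 0.95 in OKN-007 mouse 8 and 1.61 in untreated mouse 3 to 3.96 in untreated mouse 1. In G93A untreated mice of that time it was 2.47 to 3.65. The human transgene was not analysed here, and the mouse's own Sod1 gene was at 256 CPM in G93A untreated and 276 CPM in WT untreated mice at 155 days (log2 difference −0.10, adjusted p = 0.46).

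At 155 days, the comparison of untreated G93A with untreated WT mice asks how late disease alters the system. The ligand Igf1 and 4 of the 6 binding proteins were higher in G93A mice, and so, by a small margin, was the receptor Igf2r. In total, 6 of the 9 tested members were higher, 0 were lower and 3 did not pass the test, where 39.5% of the 18675 genes tested passed it, 21.3% as higher and 18.2% as lower. The median log2 difference was 1.23 over the 9 members and 0.000155 over all genes tested. The 6 members that passed were also those whose 4 G93A mice all lay above the 4 WT mice, a pattern shown by 17.4% of the genes tested, or 32.7% counting both directions. Since whole tissue was sequenced, more cells of a type and more RNA per cell cannot be told apart in any of these differences.

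**Figure D1:**
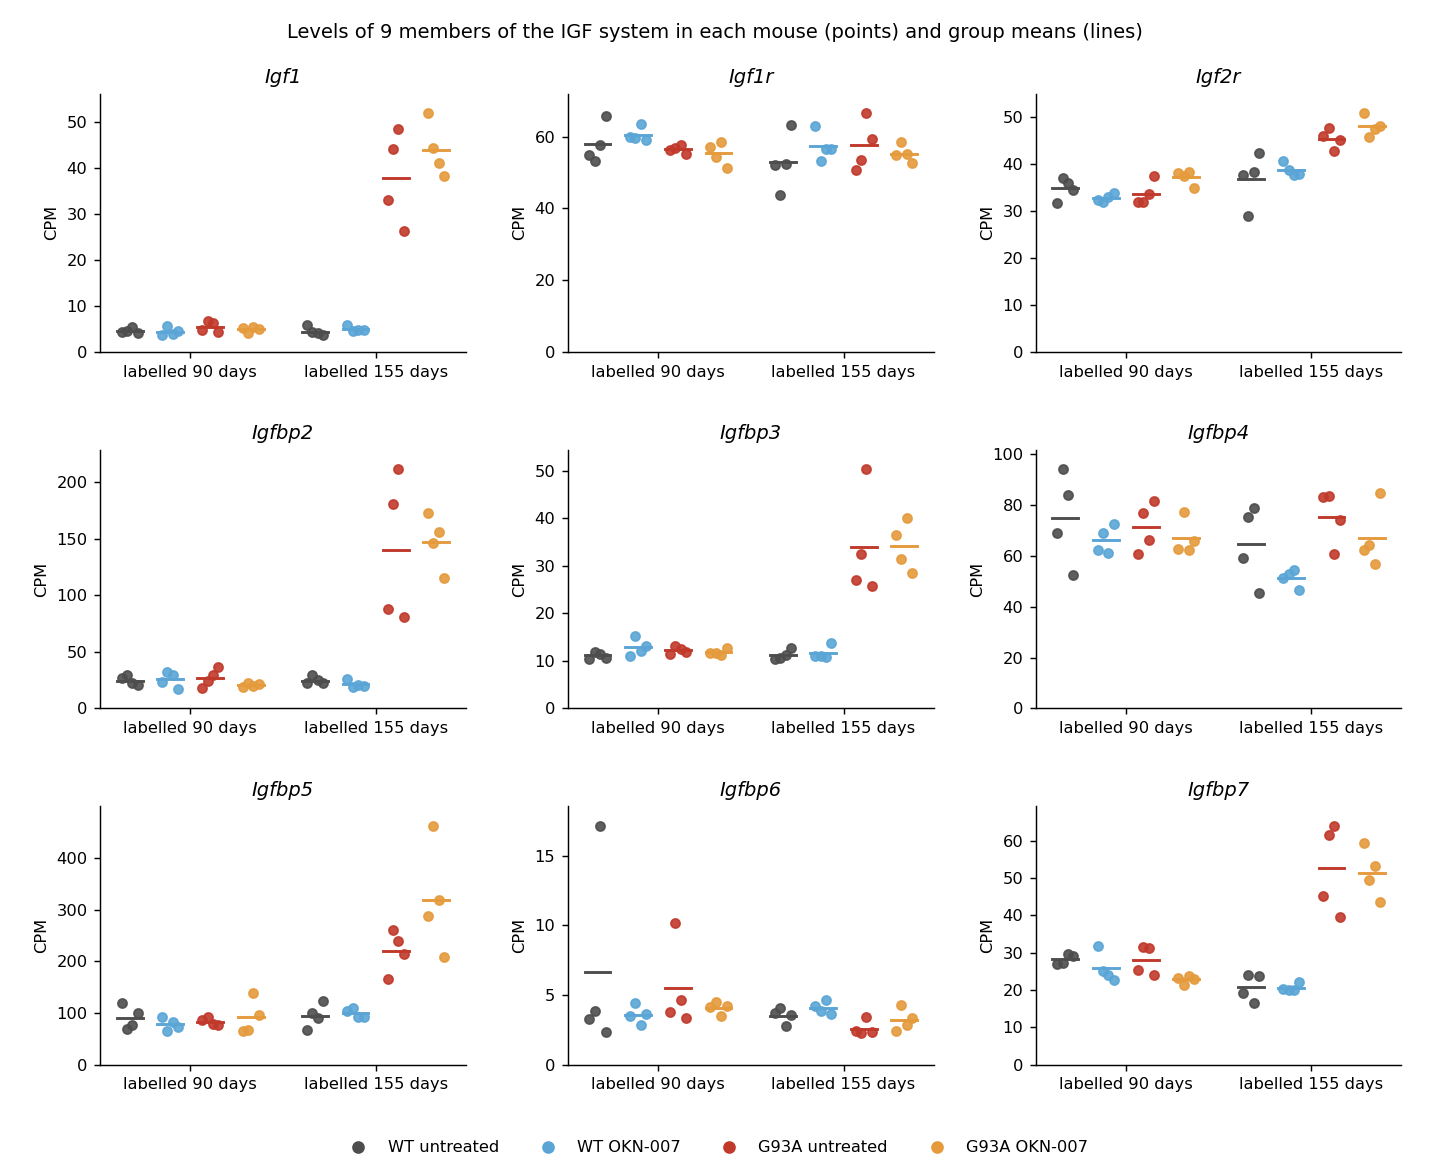
Level of each tested member (vertical axis, CPM from 0) in each of the 32 mice (points) and the mean of each group (lines), by label of time on the horizontal axis and coloured by genotype and treatment. Igf1, Igfbp2, Igfbp3, Igfbp5 and Igfbp7 lay above the WT points in all 8 G93A mice labelled 155 days. Igf1r overlapped between the genotypes except in OKN-007 mice labelled 90 days. Igfbp6 had its highest point, 17.1 CPM, in a WT untreated mouse labelled 90 days.

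Igf1 encodes IGF-1, the ligand through which growth hormone acts in many tissues and which glial cells also make locally. The gene lies on chromosome 10 (+ strand), at 87858265 to 87937042 of build GRCm38. It stood at 5.74, 4.21, 4.01 and 3.57 CPM in the WT untreated mice and at 33.0, 44.0, 48.3 and 26.1 CPM in the G93A untreated mice at 155 days. The groups did not overlap, and the lowest G93A mouse was above every WT mouse by several times. The difference was 3.12 ± 0.18 on the log2 scale (SE, 4 mice a group), or 8.71-fold with a 95% interval of 6.66 to 11.4 (adjusted p = 2.5e-10). Ordered by log2 difference from the top, Igf1 held rank 233 among the 18675 genes. The other ligand, Igf2, a growth factor of fetal tissues, was at 0 to 3 counts in every mouse of every group, at or under the limit of counting. Its exons share 62.8% of their bases with Gm49394 on the same strand, so that its own level cannot be read from these counts.

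The promoters of Igf1 and Igfbp2, which differed most, and of Igfbp5, the neighbour of Igfbp2 on chromosome 1, are shown as reference sequence, 250 bases before the start of transcription and 50 after it (RefSeq, GRCm38.p6, 5′ to 3′ on the strand of the gene), with the letters that matched a searched motif in capitals. All 9 tested members were matched to a promoter in that table, and only the first listed start of each gene was used. The stretch shown for Igf1 lies inside the gene, which begins at 87858265. Any other start of these genes was not searched. The motifs were those of transcription factors active in macrophages and inflammation: PU.1 core (GAGGAA), AP-1 (TGANTCA) and STAT (TTCNNNGAA), and the longer NF-kB motif, each searched on both strands. Igf1, at chr10:87860861-87861160 (+ strand), held 1 PU.1 core and 1 AP-1 match, while Igfbp2, at chr1:72824230-72824529 (+ strand), and its neighbour Igfbp5, at chr1:72874816-72875115 (− strand), held no match.
Igf1: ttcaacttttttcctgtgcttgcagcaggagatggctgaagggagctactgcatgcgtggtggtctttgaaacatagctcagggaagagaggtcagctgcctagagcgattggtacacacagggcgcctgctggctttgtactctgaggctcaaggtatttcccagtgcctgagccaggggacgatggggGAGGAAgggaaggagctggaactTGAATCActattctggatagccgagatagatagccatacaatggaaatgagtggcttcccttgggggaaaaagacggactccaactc
Igfbp2: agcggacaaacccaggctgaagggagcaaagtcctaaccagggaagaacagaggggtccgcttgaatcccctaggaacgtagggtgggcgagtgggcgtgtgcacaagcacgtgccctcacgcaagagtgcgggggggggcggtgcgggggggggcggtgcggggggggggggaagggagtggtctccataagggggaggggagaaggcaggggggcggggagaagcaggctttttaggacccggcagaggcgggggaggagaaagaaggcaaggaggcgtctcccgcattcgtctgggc
Igfbp5: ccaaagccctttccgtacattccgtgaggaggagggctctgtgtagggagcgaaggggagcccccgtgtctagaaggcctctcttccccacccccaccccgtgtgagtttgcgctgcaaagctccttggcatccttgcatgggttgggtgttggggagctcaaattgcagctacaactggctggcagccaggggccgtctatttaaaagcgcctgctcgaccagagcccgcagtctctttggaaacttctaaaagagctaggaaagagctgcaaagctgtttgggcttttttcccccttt
Of 32544 mouse promoters of that length, 28.1% held the PU.1 core letters, 7.79% AP-1, 8.33% STAT and 0.415% NF-kB. Besides Igf1, the promoter of Igfbp6 alone among the tested members held a match, 1 PU.1 core. A match in letters is not a site, and its absence from 300 bases says nothing of the factor.

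The receptors differed from the ligand in scale. Igf1r (chromosome 7, 67952827 to 68233668, + strand), the kinase that carries the IGF signal, was at 52.2, 43.7, 52.4 and 63.4 CPM in WT untreated and 50.7, 53.5, 66.7 and 59.5 CPM in G93A untreated mice at 155 days. The groups overlapped, with the lowest of the 8 mice in WT and the highest in G93A. The log2 difference of 0.14 ± 0.10 did not pass the test (adjusted p = 0.29), and its 95% interval ran from −0.07 to 0.34, which is up to 1.27-fold higher. It passed only without WT mouse 4, the highest of its group (0.25, adjusted p = 0.045). Igf2r (chromosome 17, 12682406 to 12769664, − strand), the receptor that clears IGF-2 and carries lysosomal enzymes, was at 37.7, 28.9, 38.4 and 42.4 CPM in WT and 46.0, 47.6, 42.7 and 45.2 CPM in G93A untreated mice. The groups did not overlap, but only by the gap between 42.4 and 42.7 CPM. The difference was 0.31 ± 0.09 (1.24-fold, 95% interval 1.10 to 1.41, adjusted p = 0.0074). It did not pass when the Hox score entered the fit (0.25, adjusted p = 0.11) or without G93A mice 9 and 10, the 2 with low Hox scores (0.27, adjusted p = 0.079). Airn, a noncoding RNA that runs antisense through part of Igf2r and shares none of its exon bases, was lower in G93A mice (−0.50 ± 0.17, adjusted p = 0.024). This call was lost without WT mouse 2 (−0.35, adjusted p = 0.10) or G93A mouse 10 (−0.44, adjusted p = 0.075). It was also lost without G93A mice 9 and 10 together (−0.45, adjusted p = 0.13) and when the Hox score entered the fit (−0.50, adjusted p = 0.10).

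Among the binding proteins, Igfbp2 rose most. Its product is made by astrocytes and the choroid plexus and is a major IGF-binding protein of cerebrospinal fluid. It was at 22.2, 29.1, 24.7 and 22.2 CPM in WT untreated and 87.7, 181, 212 and 80.7 CPM in G93A untreated mice at 155 days. The G93A mice fell into a higher pair, 10 and 11, and a lower pair, 9 and 12, and all 4 were above the WT mice. The difference was 2.53 ± 0.25 (5.76-fold, 95% interval 4.04 to 8.23, adjusted p = 1.6e-07). On chromosome 1, Igfbp2 (72824503 to 72852474, + strand) and Igfbp5 (72857932 to 72874884, − strand) end towards each other with 5457 bases between them. Igfbp5, whose product binds extracellular matrix and is widely expressed in neurons and glia, was at 66.9, 99.5, 89.5 and 123 CPM in WT and 166, 262, 239 and 214 CPM in G93A mice. It too was separated between the groups, at 1.23 ± 0.20 (2.34-fold, adjusted p = 8.95e-05).

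Igfbp3 encodes the main carrier of IGFs in blood, where it forms a complex with the acid-labile subunit. In the cord it was at 10.3, 10.5, 11.2 and 12.8 CPM in WT untreated and 27.0, 32.5, 50.3 and 25.8 CPM in G93A untreated mice at 155 days. All G93A mice were above all WT mice, with mouse 11 the highest, and the difference was 1.61 ± 0.17 (3.05-fold, adjusted p = 5.9e-07). Igfbp7 encodes a relative of the family that binds IGFs weakly and is known from the walls of vessels. Its level was 19.1, 23.9, 16.6 and 23.9 CPM in WT and 45.1, 61.5, 64.0 and 39.5 CPM in G93A mice, again without overlap, at 1.34 ± 0.15 (2.54-fold, adjusted p = 6.7e-07). Of the bases in its exons, 7.03% overlap Polr2b on the opposite strand, and whether the counting used strand is not given in the sources used here.

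Igfbp4 and Igfbp6 did not pass the test in untreated mice at 155 days. Igfbp4, an inhibitor of IGF action that the protease PAPP-A cuts, was at 59.1, 75.2, 78.7 and 45.4 CPM in WT and 83.3, 83.6, 60.8 and 74.3 CPM in G93A mice, with overlap (0.24 ± 0.15, adjusted p = 0.21). Igfbp6, a binding protein that prefers IGF-2, was at 3.73, 4.03, 2.75 and 3.54 CPM in WT and 2.38, 2.27, 3.40 and 2.31 CPM in G93A mice, where mouse 11 alone reached into the range of WT (−0.42 ± 0.19, adjusted p = 0.085). Without that mouse the difference of Igfbp6 was −0.58 and passed (adjusted p = 0.026), and without WT mouse 3 it was −0.52 (adjusted p = 0.047).

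In mice on OKN-007 at 155 days, G93A was compared with WT in 8 other animals, and 7 members were higher, 0 lower and 2 did not pass, beside 41.5% of genes past the test, 23.3% as higher and 18.2% as lower. Igf1 was at 5.89, 4.57, 4.82 and 4.66 CPM in WT and 51.9, 44.4, 40.9 and 38.1 CPM in G93A mice, a difference of 3.17 ± 0.18 (9.03-fold, adjusted p = 1.3e-10). Igfbp2 was at 25.6, 18.9, 20.5 and 20.1 CPM in WT and 173, 146, 156 and 115 CPM in G93A mice (2.83 ± 0.25, adjusted p = 3.4e-08). Neither gene overlapped between the genotypes. The SD of Igfbp2 was 24.1 CPM in the treated and 65.9 CPM in the untreated G93A mice, a difference in spread that was not tested. Igfbp5 was at 104, 111, 93.2 and 92.1 CPM in WT and 288, 463, 319 and 208 CPM in G93A mice, where mouse 14 held the highest level of the gene in the series (1.72 ± 0.20, adjusted p = 1.7e-06). The log2 differences of Igfbp3, Igfbp7 and Igf2r were 1.58 ± 0.17, 1.35 ± 0.15 and 0.35 ± 0.09 (adjusted p = 5.8e-07, 5.1e-07 and 0.0032). All 7 members that passed lay apart, with every G93A mouse above every WT mouse, as did 22.6% of genes, or 44.4% counting both directions.

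Igfbp4 was the member that passed in treated and not in untreated mice, at 51.3, 53.0, 54.3 and 46.6 CPM in WT and 62.5, 64.3, 56.9 and 85.0 CPM in G93A mice (0.42 ± 0.15, adjusted p = 0.029). The separation was narrow, from 54.3 to 56.9 CPM, and the call was lost without WT mouse 5 (0.42, adjusted p = 0.059), WT mouse 8 (0.38, 0.084), G93A mouse 14 (0.42, 0.054) or G93A mouse 16 (0.30, 0.12), and with the Hox (0.27, 0.25) or the fibroblast score (0.40, 0.11) as a covariate. The genotype difference of Igfbp4 did not itself differ between treatments (interaction 0.18 ± 0.21, adjusted p = 1.0). Igf1r and Igfbp6 stood at −0.02 ± 0.10 and −0.31 ± 0.18 and did not pass (adjusted p = 0.92 and 0.19).

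**Figure D2:**
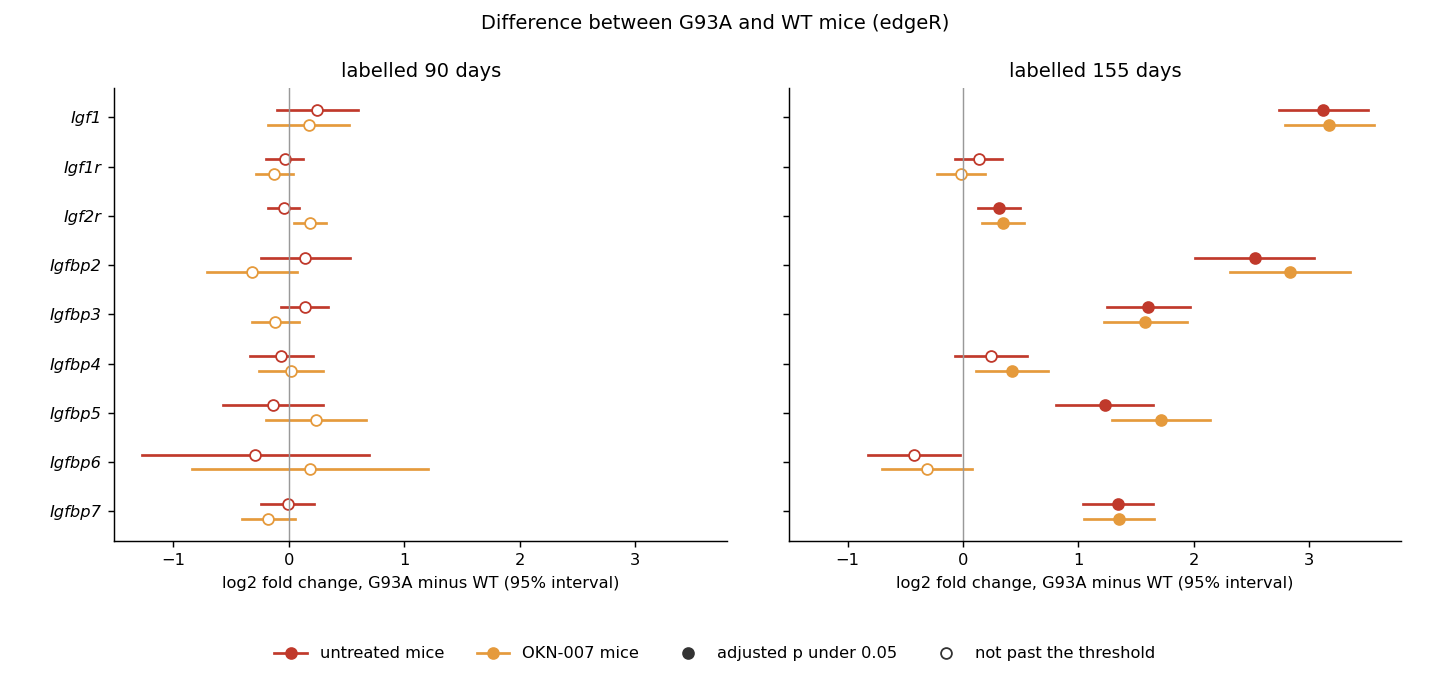
Log2 fold change of G93A against WT mice (horizontal axis, edgeR, points with 95% intervals) for the 9 tested members, in untreated and in OKN-007 mice, at each labelled time. Filled points passed an adjusted p of 0.05, and all of these are in the panel for 155 days, where Igf1 lies at 3.12 and 3.17.

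When the untreated and the OKN-007 differences were averaged over the 16 mice of 155 days, 7 members were higher, 1 was lower and 1 did not pass, where 54.7% of genes passed, 28.8% as higher and 25.8% as lower. The lower one was Igfbp6 (−0.37 ± 0.13, adjusted p = 0.025), and Igfbp4 was higher (0.33 ± 0.11, adjusted p = 0.012). Of 26 alternatives, 9 lost the first call and 3 the second. When the Hox score entered the fit, Igfbp6 was at −0.12 (adjusted p = 0.61) and Igfbp4 at 0.16 (adjusted p = 0.41), and without G93A untreated mice 9 and 10, whose Hox scores were low, they were at −0.30 (adjusted p = 0.11) and 0.25 (adjusted p = 0.088). By contrast, Igf1, Igf2r, Igfbp2, Igfbp3, Igfbp5 and Igfbp7 passed in all 26. Igf1r remained at 0.06 ± 0.07, with a 95% interval of −0.09 to 0.21 (adjusted p = 0.49).

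The marker genes of several cell types and of cord level moved at 155 days together with these members. Summed over 9 genes, microglial markers were between 328 and 400 CPM in WT untreated and between 1462 and 2586 CPM in G93A untreated mice, with 9 of 9 genes higher. The 10 markers of disease-associated microglia were between 195 and 238 CPM in WT and between 1160 and 2184 CPM in G93A mice, and all 10 were higher. Astrocyte markers rose in 7 of 8 genes, and their sum was 6373 ± 312 CPM in WT and 18550 ± 2689 CPM in G93A mice (mean ± SD). The sum of fibroblast markers was 53.9 to 62.8 CPM in WT and 120 to 180 CPM in G93A mice, with 3 of the 8 tested genes higher. These were Fmod (log2 difference 4.04), Col1a1 (0.67) and Col1a2 (0.38). Of those that did not pass, Col3a1 (−0.70), Lum (−0.71) and Dcn (−0.20) were below 0, and Ogn (0.20) and Slc6a13 (0.07) above it. Neuronal markers were lower in 6 of 6 genes and motor neuron markers in 7 of 8, whereas of 8 endothelial markers 0 were higher and 1 was lower. Of 8 markers of pericytes and smooth muscle, which line vessels, 3 were higher (Notch3, Pdgfrb and Kcnj8) and 1 was lower (Abcc9), and their sum was 216 to 253 CPM in WT and 186 to 271 CPM in G93A mice. Caudal Hox genes were lower in 4 of 9 (Hoxc11, Hoxd11, Hoxd9 and Hoxa9), with sums of 223 to 274 CPM in WT and 59.97 to 204 CPM in G93A untreated mice that did not overlap. None of these lists had a gene at 0 in the groups compared, and the part of any cell type in the differences of the members was not tested. When the Hox score entered the fit of untreated mice at 155 days, Igf1, Igfbp2, Igfbp3, Igfbp5 and Igfbp7 still passed, and Igf2r did not (0.25, adjusted p = 0.11). The Hox scores of the untreated WT and G93A mice did not overlap, so that cord level and genotype cannot be fully told apart in this fit.

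Within the untreated G93A mice the order of Igf1, Igfbp2, Igfbp3 and Igfbp7 followed that of the disease-associated microglial markers. It equally followed that of the microglial and the astrocyte markers, while the order of Igfbp5 and Igf2r did not. Mice 10 and 11, with 2079 and 2184 CPM of disease-associated markers, had 44.0 and 48.3 CPM of Igf1 and 181 and 212 CPM of Igfbp2, and mice 9 and 12, with 1507 and 1160 CPM, had 33.0 and 26.1 CPM of Igf1 and 87.7 and 80.7 CPM of Igfbp2. Among the treated G93A mice, Igf1 fell in the same order as both sets of microglial markers, but not as the astrocyte markers, which were highest in mouse 15, from 51.9 CPM in mouse 13 to 38.1 CPM in mouse 16. Igfbp2, Igfbp3, Igfbp5 and Igfbp7 did not keep this order there. Mouse 15 was above mouse 14 for Igfbp2, Igfbp3 and Igfbp7, and mouse 14 was above mouse 13 for Igfbp5. As 4 mice a group allow no test of such an order, it is given as a description.

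**Figure D3:**
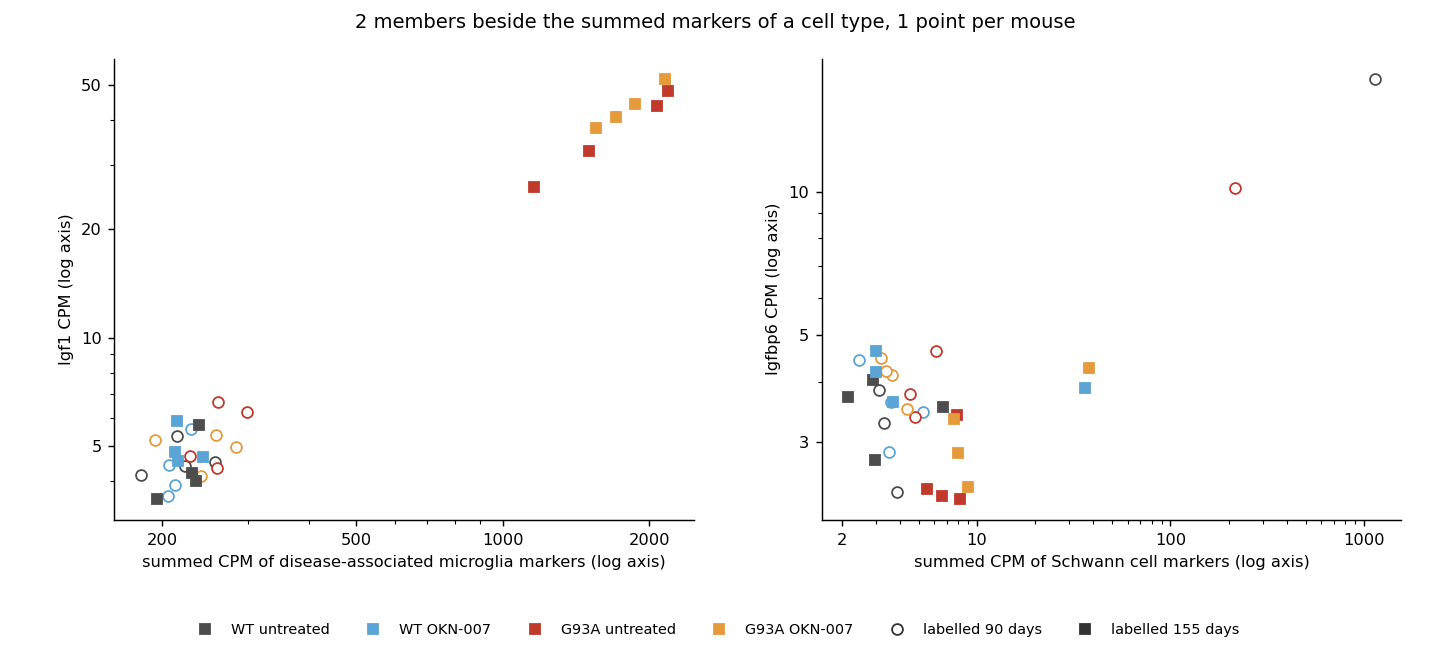
Left, Igf1 (vertical, CPM) against the summed CPM of 10 markers of disease-associated microglia (horizontal), and right, Igfbp6 against the summed CPM of 6 Schwann cell markers, 1 point per mouse, all axes logarithmic. The 8 G93A mice labelled 155 days lie apart at the upper right of the left panel, and in the right panel the 2 mice with 217 and 1140 CPM of Schwann cell markers have the 2 highest Igfbp6 levels, 10.2 and 17.1 CPM.

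At 90 days 0 members passed the test between G93A and WT mice, whether untreated, treated or averaged over both, and 0%, 0% and 0.0265% of 18899 genes did. Igf1 was at 4.42, 4.52, 5.36 and 4.16 CPM in WT untreated and 4.69, 6.64, 6.23 and 4.37 CPM in G93A untreated mice. The groups overlapped, with G93A mice 10 and 11 above all WT mice, and the averaged difference was 0.21 ± 0.12 (95% interval −0.04 to 0.46, adjusted p = 0.80). Igfbp2 was at 26.4, 29.1, 21.9 and 20.2 CPM in WT and 17.8, 24.5, 29.2 and 36.2 CPM in G93A untreated mice, at an averaged −0.09 ± 0.13. By edgeR, 0, 1 and 0 members had an unadjusted p under 0.05 in the 3 comparisons, beside 5.96%, 3.95% and 6.61% of genes. The 1 was Igf2r in treated mice (0.19 ± 0.07, edgeR's unadjusted p = 0.011, adjusted p = 1.0). By DESeq2 and edgeR's likelihood ratio test 0 members passed. In untreated mice the sum of microglial markers was 380 to 433 CPM in WT and 387 to 599 CPM in G93A mice, and that of disease-associated microglia 181 to 256 CPM and 228 to 299 CPM. Of these markers 0 of 9 and 0 of 10 passed, while 4 and 8 had an unadjusted p under 0.05.

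The other members had the following ranges over the 16 mice of 90 days. Igf1r was between 51.3 and 65.8 CPM, Igf2r between 31.7 and 38.2 CPM and Igfbp3 between 10.5 and 15.3 CPM. Igfbp7 was between 21.4 and 31.8 CPM, and the ranges of Igfbp4 and Igfbp5, 52.5 to 94.2 CPM and 64.3 to 139 CPM, were wider. In OKN-007 mice the genotypes did not overlap for the receptors, as for 2.85% of genes in either direction, with Igf2r at 32.2, 31.9, 32.9 and 33.9 CPM in WT and 38.1, 37.5, 38.2 and 34.9 CPM in G93A mice, and Igf1r at 59.9, 59.6, 63.6 and 59.2 CPM in WT and 57.2, 54.2, 58.6 and 51.3 CPM in G93A mice. Neither passed the test, and in untreated mice of that time both overlapped.

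Igfbp6 at 90 days depended on a pair of libraries. It was at 3.28, 3.85, 17.1 and 2.36 CPM in WT untreated and 3.77, 10.2, 4.64 and 3.37 CPM in G93A untreated mice, and the high values belong to WT mouse 3 and G93A mouse 10, the same mice whose Schwann cell markers were high. Fibroblast markers were also highest in these mice, with sums of 212.5 CPM in WT mouse 3 and 107 CPM in G93A mouse 10. The difference between genotypes was −0.29 ± 0.47 with them and 0.31 without them (adjusted p = 0.96 and 1.0). No other member changed by as much in that comparison.

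Across time, mice labelled 155 days were set against those labelled 90 days, with the reservation that age and any batch cannot be told apart. In untreated WT mice 1 of the 9 members passed, beside 24.9% of 19829 genes, 15.3% as higher and 9.61% as lower. That was Igfbp7, which fell from 26.9, 27.1, 29.6 and 29.1 CPM to 19.1, 23.9, 16.6 and 23.9 CPM (−0.43 ± 0.13, adjusted p = 0.017), without overlap, as for 7.32% of genes that were lower at 155 days. The call was lost without WT mouse 1 (−0.42, adjusted p = 0.055) or WT mouse 3 (−0.36, adjusted p = 0.081) of 155 days. The log2 change of Igf1 in WT mice was −0.08 ± 0.18 and that of Igfbp2 0.01 ± 0.23. Igfbp6 stood at −0.93 ± 0.39 (adjusted p = 0.076) and, without the 2 mice of high Schwann cell markers, at 0.15 (adjusted p = 0.64).

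In untreated G93A mice 7 members passed, beside 33.7% of genes, 21% as higher and 12.8% as lower. Igf1 rose by 2.79 ± 0.17 on the log2 scale, Igfbp2 by 2.37 ± 0.24, Igfbp3 by 1.47 ± 0.15, Igfbp5 by 1.40 ± 0.22, Igfbp7 by 0.91 ± 0.13 and Igf2r by 0.43 ± 0.08, each with no overlap between the times, as for 17.2% of genes that were higher at 155 days. Igfbp6 fell by 1.07 ± 0.40 (adjusted p = 0.038), which rested in part on mouse 10 of 90 days, and without that mouse the value was −0.62 (adjusted p = 0.26). With both mice of high Schwann cell markers left out, however, it was −0.60 and passed (adjusted p = 0.024). Leaving out mouse 9, 10 or 12 of 155 days also ended the call (−1.04 to −1.05, adjusted p between 0.068 and 0.077).

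A test of the difference itself, the G93A change at 155 days minus that at 90 days, was passed by 6 members in untreated mice, beside 21.2% of 19829 genes, 12.9% as higher and 8.34% as lower. The differences were 2.87 ± 0.25 for Igf1, 2.37 ± 0.33 for Igfbp2, 1.46 ± 0.21 for Igfbp3, 1.34 ± 0.31 for Igfbp5, 1.34 ± 0.19 for Igfbp7 and 0.34 ± 0.11 for Igf2r. The smallest of them was the least stable, since Igf2r lost its call without WT mouse 3 or G93A mouse 9 of 90 days, without WT mouse 2 or G93A mouse 10 of 155 days, and under 4 other settings (0.25 to 0.33, adjusted p between 0.053 and 0.11). Averaged over untreated and OKN-007 mice, 6 members passed the same test as higher and 0 as lower, beside 37.5% of genes, 19.6% as higher and 17.8% as lower. Igf2r, at 0.24, lost this call with no low-count filter (0.21, adjusted p = 0.11) or with the Hox score as a covariate (0.18, adjusted p = 0.091). The call was also lost without G93A untreated mice 9 and 10 of 155 days, whose Hox scores were low (0.22, adjusted p = 0.055). In untreated mice Igfbp6, at −0.14 ± 0.55, became −1.21 and passed without WT mouse 3 of 90 days (adjusted p = 0.021). That fit kept G93A mouse 10 of 90 days, the other mouse with high Schwann cell markers, at 10.2 CPM of Igfbp6. Without both of these mice Igfbp6 gained no call, and with the fibroblast score as a covariate it passed (−1.13, adjusted p = 0.009).

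OKN-007 was compared with no treatment to ask whether the compound alters the system. By edgeR 0 members passed in G93A or in WT mice, at 155 or at 90 days, and 0% of genes did in each of these 4 comparisons. DESeq2 and edgeR's likelihood ratio test likewise passed 0 members, and of all genes at most 4, in WT mice at 155 days. At an unadjusted p under 0.05 there were 1 member in G93A and 1 in WT mice at 155 days, beside 4.04% and 2.94% of genes, and 3 in G93A and 1 in WT mice at 90 days, beside 5.56% and 4.07% of genes. The intervals bound what could have been missed. In G93A mice at 155 days the 95% interval of the OKN-007 difference was 0.93-fold to 1.47-fold for Igf1, 0.76-fold to 1.48-fold for Igfbp2 and 0.84-fold to 1.11-fold for Igf1r.

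**Figure D4:**
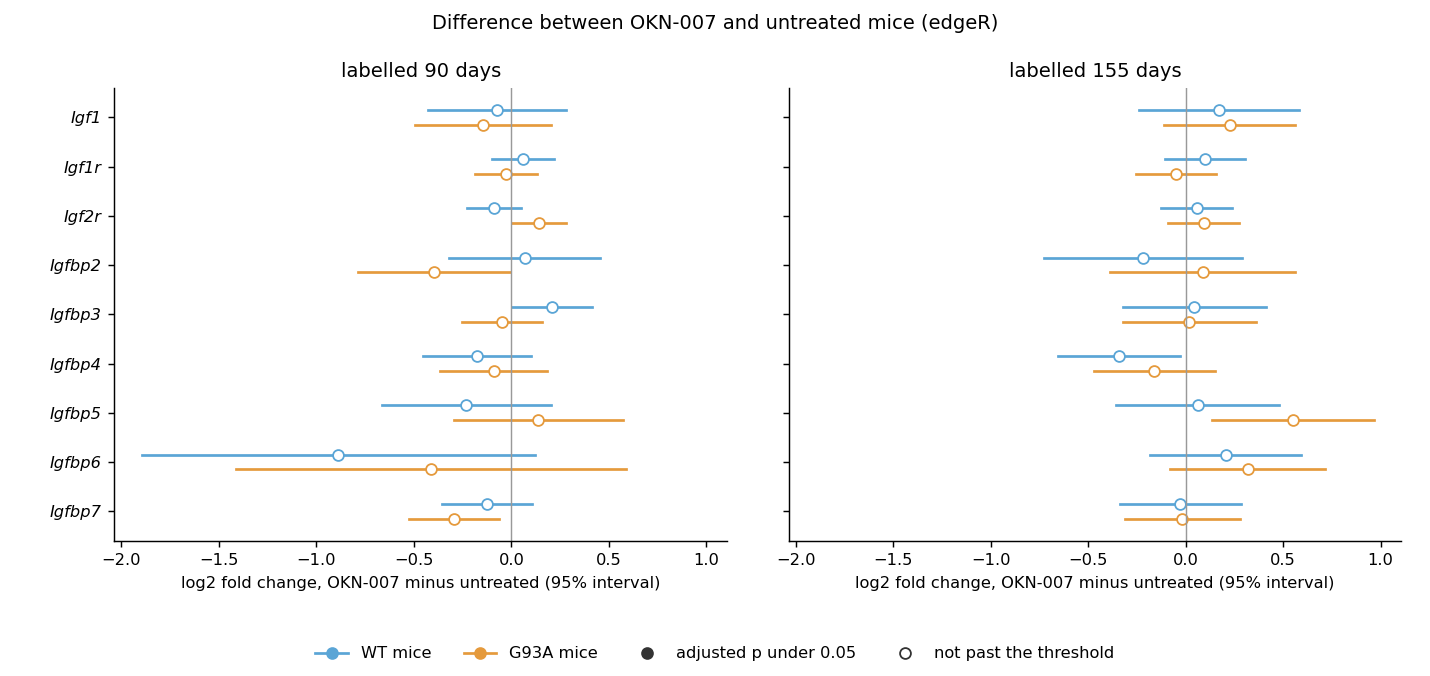
Log2 fold change of OKN-007 against untreated mice (horizontal axis, edgeR, points with 95% intervals) for the 9 tested members in WT and G93A mice at each labelled time. No point is filled, since none passed an adjusted p of 0.05, and the largest shift in G93A mice at 155 days is that of Igfbp5, at 0.55.

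Igfbp5 showed the largest shift with OKN-007 in G93A mice at 155 days, from 166, 262, 239 and 214 CPM untreated to 288, 463, 319 and 208 CPM treated. Treated mice 13, 14 and 15 lay above all untreated mice and mouse 16 lay among them, and the difference was 0.55 ± 0.20 (1.46-fold, 95% interval 1.10 to 1.95, unadjusted p = 0.012, adjusted p = 1.0). Without treated mouse 14 it was 0.31. That mouse also had 38.1 CPM of summed Schwann cell markers, against 7.65 to 8.98 CPM in the other treated G93A mice, and the highest fibroblast score of the 16 mice, 1.91, and their part in the result was not tested. The genotype by treatment interaction of Igfbp5 was 0.49 ± 0.28 (adjusted p = 1.0). In WT mice at 155 days the member with the lowest p was Igfbp4, at −0.34 ± 0.15 (unadjusted p = 0.033, adjusted p = 1.0). In G93A mice at 90 days these were Igfbp7, at −0.29 ± 0.11, Igf2r, at 0.14 ± 0.07, and Igfbp2, at −0.40 ± 0.19 (unadjusted p = 0.015, 0.043 and 0.047, adjusted p = 0.84 for each). Igfbp7 was at 25.4, 31.4, 31.2 and 23.9 CPM untreated and 23.2, 21.4, 23.7 and 22.9 CPM treated in that comparison, without overlap, as for 1.43% of genes that were lower with treatment. In WT mice at 90 days it was Igfbp3, at 0.21 ± 0.10 (unadjusted p = 0.048, adjusted p = 0.99). In the interactions of genotype and treatment 0 members passed at either time. An unadjusted p under 0.05 was reached by 0 members at 155 days, beside 2.34% of genes, and by 1 at 90 days, beside 2.81%. That was Igf2r, at 0.23 ± 0.09 (edgeR's unadjusted p = 0.023, adjusted p = 1.0). The OKN-007 change in G93A mice did not pass a test of its difference between the times for any member, with 0 of them at an unadjusted p under 0.05, beside 2.35% of genes.

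Per kilobase of exon, the order of the levels changed in G93A mice at 155 days. In WT untreated mice the mean level was highest for Igfbp7, at 17.3 ± 3.0 CPM per kb (SD, n = 4), followed by Igfbp5 (15.8 ± 3.9), Igfbp4 (14.6 ± 3.5) and Igfbp2 (13.3 ± 1.8). The ranges of neighbours in that order overlapped. Then came Igf2r (3.95 ± 0.61), Igfbp3 (3.58 ± 0.35), Igfbp6 (3.16 ± 0.49) and Igf1r (3.15 ± 0.48), again with overlap, and Igf1 was last and apart, at 0.44 ± 0.09 CPM per kb. In G93A untreated mice Igfbp2 was first, at 75.9 ± 35.7 CPM per kb, before Igfbp7 (43.5 ± 9.995) and Igfbp5 (36.6 ± 6.9), whose ranges overlapped, while Igfbp4 was below these (17.1 ± 2.4). Igf1 had moved from the last place to the level of the receptors, at 3.82 ± 1.02 beside 4.87 ± 0.22 for Igf2r and 3.43 ± 0.42 for Igf1r, and Igfbp6 was last (2.33 ± 0.49).

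The messages of the 6 binding proteins, summed per kilobase, exceeded that of Igf1 in every group, by 159 ± 40.4 times in WT untreated mice at 155 days (mean of the ratio ± SD) and by 48.7 ± 4.3 times in G93A untreated mice. The ratio was 102 to 194 in the 4 WT mice and 42.6 to 52.7 in the 4 G93A mice, which did not overlap. In OKN-007 mice at 155 days it was 129 ± 12 in WT and 46.4 ± 4.8 in G93A mice, and in the 4 groups at 90 days its mean was between 137 and 168. The sum itself was higher in G93A mice, at 186 ± 53 against 67.7 ± 7.2 CPM per kb in untreated mice. The ratio compares messages, not proteins. Exon length here counts every annotated exon of a gene, 9904 bases for Igf1 and 1209 for Igfbp7. The ratio and the order of levels between genes therefore depend on the annotation.

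Of the other genes of the pathway, 48 were listed by role, and 40 of them were tested at 155 days. Among other binding and carrier proteins, Igfbpl1, a secreted relative of the family, was the only one of 3 with enough counts. It was between 0.0764 and 0.224 CPM in WT untreated and between 5.55 and 20.6 CPM in G93A untreated mice, and the fitted difference was 6 ± 0.53 (adjusted p = 4.4e-08), which rests on at most 6 counts in any WT mouse. In untreated mice at 90 days Igfbpl1 was at 0.44 ± 0.33 CPM in WT and 1.04 ± 0.50 CPM in G93A mice and did not pass. Among 5 proteases and protease inhibitors, which release IGFs by cutting their binding proteins or hold these enzymes back, Htra1, a serine protease, was at 196, 206, 166 and 218 CPM in WT and 208, 241, 476 and 204 CPM in G93A mice (0.54 ± 0.19, adjusted p = 0.035). The groups overlapped, and the call was lost without G93A mouse 11 (0.16, adjusted p = 0.24), WT mouse 1 (0.54, 0.064) or WT mouse 3 (0.46, 0.10) and by DESeq2 (0.52, 0.086), while Pappa, Pappa2, Stc1 and Stc2 did not pass. Of the insulin ligands and receptors 1 of 4 was tested, and Insr, the insulin receptor, stood at 0.12 ± 0.08 (adjusted p = 0.26).

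At the Igf2 locus, H19, the imprinted noncoding RNA next to Igf2, was higher in G93A untreated mice at 155 days, at 3.21 ± 1.81 CPM against 0.77 ± 0.22 CPM (2.05 ± 0.33, adjusted p = 8.6e-05). Igf2bp2, whose product binds messenger RNA including that of Igf2, was also higher (1.11 ± 0.25, adjusted p = 0.0015). With Airn, above, 2 of the 3 tested genes of that list rose and 1 fell, beside 21.3% and 18.2% of all genes.

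Among 9 receptor adaptors, which link the receptor to its kinases, 3 rose, 3 fell and 3 did not pass, beside the 21.3% and 18.2% of all genes given above. Shc1 (0.50 ± 0.10), Grb14 (0.49 ± 0.08) and Irs1 (0.33 ± 0.11) were higher, and Irs4 (−0.89 ± 0.25), Sos1 (−0.51 ± 0.12) and Grb10 (−0.43 ± 0.09) were lower. Shc1 and Irs1 pass the signal on, whereas Grb10 and Grb14 are known as inhibitors of the receptor kinase. Of the 21 genes from PI3-kinase to FoxO, 4 rose, 6 fell and 11 did not pass, beside the same shares of all genes, and among those with the largest differences were Inpp5d (2.17 ± 0.15), Foxo1 (0.71 ± 0.13), Pdpk1 (−0.58 ± 0.13), Gsk3b (−0.49 ± 0.13) and Pik3cb (−0.36 ± 0.11). Inpp5d encodes SHIP1, a phosphatase of blood cells and microglia that breaks down the lipid made by PI3-kinase, and microglial markers rose in the same mice, as given above, but their part in this difference was not tested. The call of Irs1 was lost without WT mouse 1 or 2 or G93A mouse 10 or 12 (0.26 to 0.31, adjusted p between 0.064 and 0.074), and that of Pik3cb without WT mouse 1 or 3 or G93A mouse 10 or 11 (−0.27 to −0.32, adjusted p between 0.051 and 0.071). When the Hox score entered the fit, neither Irs1 (0.29, adjusted p = 0.14), Irs4 (−0.61, adjusted p = 0.17) nor Pik3cb (−0.36, adjusted p = 0.081) passed. The median log2 difference was −0.05 in both lists, beside 0.000155 over all genes. In the OKN-007 and the 90-day comparisons 0 genes of any of these lists passed by edgeR.

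**Figure D5:**
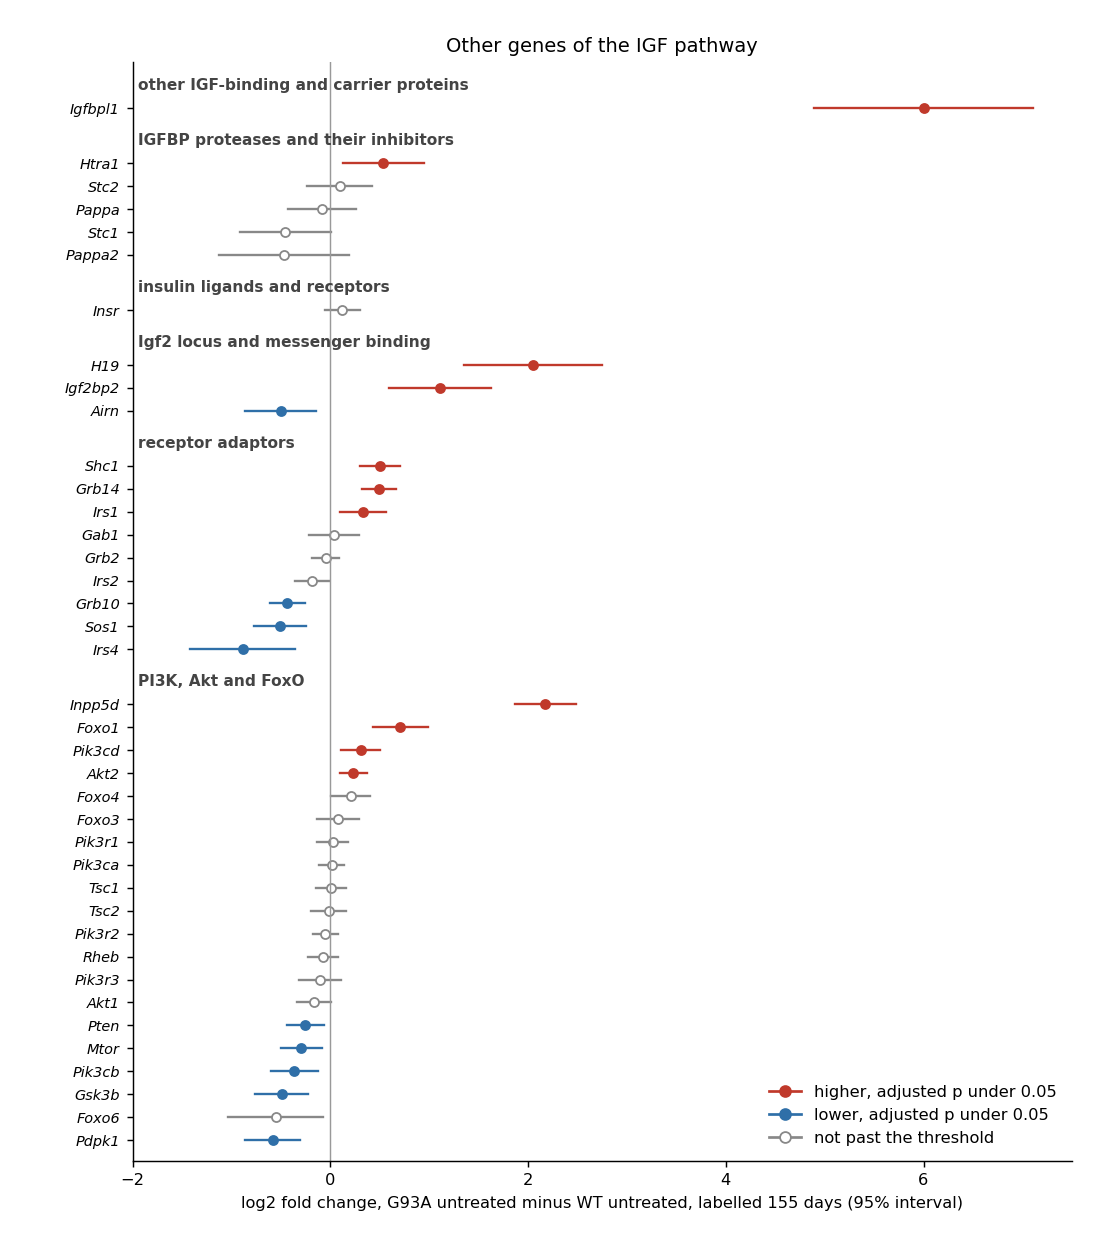
Log2 fold change of G93A untreated against WT untreated mice labelled 155 days (horizontal axis, edgeR, points with 95% intervals) for tested genes of 6 lists of the pathway. Igfbpl1 lies farthest to the right, at 6, and the adaptors and the genes from PI3-kinase to FoxO lie on both sides of 0, between −0.89 and 2.17.

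Genes with the most similar pattern were sought by Pearson's r of log2 CPM over the 32 mice, among 19829 genes. These values mostly reflect the shared difference of the 8 G93A mice at 155 days from the others and carry no test. Igf1 was most like Man2b1 (0.989), Cd34 (0.989) and Cd200r4 (0.988), and Igfbp2 most like Spp1 (0.982), Creg1 (0.979) and Serpine2 (0.977). Igfbp3 was closest to Ctsl (0.979), Igfbp7 to Slc44a2 (0.973), Igfbp5 to Tap2 (0.943) and Igf2r to Myh9 (0.909).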

How the data were processed

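Spinal cord RNA of 32 mice was sequenced from a stranded mRNA library, and the authors deposited 1 table of raw counts per gene, which was used as it stands. The study's methods name Trimmomatic, STAR, HTSeq and GENCODE M10 (GRCm38), whereas the submitters' processing notes name FastQC, STAR, featureCounts and builds GRCm39 and hg38, so the counter and build are uncertain and the strand setting is not given in the sources used here. Of 42524 gene identifiers, 41203 (96.9%) were matched to symbols through GENCODE M21, from which coordinates and exon lengths were taken, and 1306 identifiers are numbered above its last.

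Groups were taken from the labels. Per-mouse totals were 19701722 to 30138257 counts (median 26658755). Counts were fitted with edgeR 4.0.16 (R 4.3.3, limma 3.58.1), TMM factors, filterByExpr and the quasi-likelihood F-test, 2-sided, with Benjamini-Hochberg adjustment over all genes tested and a threshold of 0.05. The 16 mice of a time were fitted as 4 groups, and changes across time in a fit of all 32 mice. CPM uses TMM-scaled library sizes. The code was tested on simulated data.

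All 10 members were named in every comparison. Genes of the pathway lists were named where they passed at 155 days in untreated mice, at most the 6 with the largest change per list, and genes most alike a member were the 3 with the highest correlation of log2 CPM (prior count 2). Pappa, Pappa2, Stc1, Stc2 and Insr, which did not pass, and the mouse Sod1 gene are named beside these. The values of 1 gene of these lists are not reported here. The members and lists were chosen with earlier results of these data known. Alternatives were DESeq2 1.42.0, the likelihood ratio test, other size factors, filters, samples, covariates, a replicate block and leaving out each mouse. Those leaving out 2 mice at once were chosen after seeing the data. The labels reuse the same numbers at both times. By the methods, mice were sacrificed at each age, so those of the 2 times are separate animals. Same-numbered mice at the 2 times did not deviate together (16 pairs, correlations −0.21 to 0.13, 2 over 0.1). Such correlations cannot show whether same-numbered mice shared a litter or a batch.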

Additional observations from a re-analysis of the deposited data

Results flagged for a closer look

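In 4 of 72 groups of 4 mice, 1 mouse lay far from the other 3 by Dixon's test, where chance flags about 1 in 20 groups, or 3.6 of these. Igf1r was at 63.6 CPM in WT OKN-007 mouse 7 at 90 days, with the next at 59.9 CPM. Igfbp3 was at 13.7 CPM in WT OKN-007 mouse 8 at 155 days, with the next at 11.1 CPM. Igfbp6 was at 17.15 CPM in WT untreated mouse 3 at 90 days, whose summed Schwann cell markers were 1140 CPM, with the next at 3.85 CPM. Igfbp6 was also at 3.40 CPM in G93A untreated mouse 11 at 155 days, with the next at 2.38 CPM.

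The G93A change differed between 155 and 90 days for 6 members, by a test of the difference in edgeR. In untreated mice the log2 differences were 2.87 for Igf1, 2.37 for Igfbp2, 1.46 for Igfbp3, 1.345 for Igfbp5, 1.34 for Igfbp7 and 0.34 for Igf2r. Averaged over untreated and OKN-007 mice they were 2.92 for Igf1, 2.745 for Igfbp2, 1.56 for Igfbp3, 1.397 for Igfbp5, 1.42 for Igfbp7 and 0.24 for Igf2r, beside 37.5% of genes past the test. Igf2r lost its call in both tests under some alternatives, as given above. Age and any batch cannot be told apart in the change over time within a genotype.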

How the results depend on the processing

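Under the alternatives, 3583 values kept both their direction and their side of the threshold, 39 lost a call and 17 gained one. The other 195 changed direction, with no call in either fit. No called value changed sign. In untreated mice at 155 days, Igf1 (2.98 to 3.29), Igfbp2 (2.26 to 2.72), Igfbp3 (1.35 to 1.78), Igfbp5 (1.05 to 1.46) and Igfbp7 (1.24 to 1.46) passed in all 19 alternatives and Igf2r (0.23 to 0.40) in 17. Without 1 mouse, the number of members past the threshold at 155 days was 6 to 7 in untreated, 6 to 7 in OKN-007 and 7 to 8 in averaged mice, and across time 0 to 2 in WT and 6 to 7 in G93A mice, 5 to 6 for the difference in untreated and 6 to 7 for the averaged difference. It was 0 to 0 in all other comparisons. With a replicate block 6 members passed in G93A mice across time, since Igfbp6 did not (−0.95, adjusted p = 0.055), and 7 for the averaged difference, since Igfbp4 did (0.32, adjusted p = 0.018), and no other call changed.

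Further calls changed as follows. Igfbp6 in WT mice across time passed without WT mouse 1, 2 or 4 of 90 days (−1.15, −1.11 and −1.25), and Igf2r there without WT mouse 2 of 155 days (0.18, adjusted p = 0.044). In OKN-007 mice at 155 days Igfbp6 passed without G93A mouse 14 (−0.50, adjusted p = 0.041). Averaged at 155 days, Igfbp6 was lost without WT mouse 2 or 7 or G93A mouse 10, 13 or 15 (−0.31 to −0.34, adjusted p between 0.051 and 0.060). The averaged difference between times passed for Igfbp4 without WT mouse 4 of 90 days (0.42) or WT mouse 3 of 155 days (0.38), and for Igfbp6, at −0.34 with all mice, without WT mouse 3 of 90 days (−0.87), without the 2 mice of high Schwann cell markers (−0.64) or with the fibroblast score as a covariate (−1.08, adjusted p = 0.00026). The cause was not tested.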
